A study of Mus musculus with 18 samples.

Results

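Serpins are a family of proteins that share 1 fold and are sorted by sequence into lettered clades. The family was taken here as every probe set whose only gene symbol in the array annotation was Serpin followed by a clade letter from a to i and a number. This rule gave 56 of the 45101 probe sets on the array and 40 of 18193 genes, with 12 genes represented by more than 1 probe set. By role, 3 genes belonged to the alpha-1 antitrypsin (Serpina1) cluster, 3 to the Serpina3 cluster, 8 were single-copy plasma serpins, 4 were other clade A genes, 18 were clade B genes and 4 were tissue serpins. Of the 40 genes, 13 lay on chromosome 12, all of clade A, 11 on chromosome 13 and 8 on chromosome 1.

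Most serpins are suicide inhibitors: a protease cuts an exposed loop, the serpin swings shut, and the enzyme stays trapped in the complex. Hepatocytes secrete most plasma serpins, which hold clotting, fibrinolysis, complement and neutrophil proteases in check, and a few members carry hormones or fold collagen in place of inhibiting an enzyme. Clade B serpins mostly stay inside cells and protect them from their own or foreign proteases.

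RNA was profiled on 18 Affymetrix mouse arrays from CD-1 mice, an outbred stock with no engineered allele in the labels. Embryonic liver was measured with 2 arrays at each of 6 stages (every day from 10.5 to 14.5 dpc, counted in days after conception, then 16.5 dpc), and normal liver of 10-week-old females with 2 arrays. What remained of the embryo once the liver was taken out (the rest of the embryo) was measured with 1 array at each of 4 stages, those from 10.5 to 12.5 dpc and 14.5 dpc. Every embryonic sample pooled at least 5 embryos. The titles number the arrays of a group as biological replicates, but do not say how separate the pools of a stage were. The p-values therefore cover only the spread among these arrays, which may be in part technical. Each sample is bulk tissue, in which more cells of a type and more RNA per cell cannot be told apart.

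Arrays differed in ways that touch the results. The 14 liver arrays held between 1216 and 1535 values below 0 and no exact 0, whereas the 4 rest-of-embryo arrays held none below 0 and between 35 and 41 exact zeros, and their 99th percentiles were 1325 to 2935 and 5553 to 5953. On the first 10.5 dpc liver array the 3' to 5' ratio of Gapdh probe sets was 2.82, against 0.744 to 0.886 on liver arrays of later stages. Heart muscle markers (6 genes) summed to between 8569 and 15492 intensity units on the 10.5 dpc liver arrays and to 1315 and 5964 at 12.5 dpc, but to 239 to 350.2 at the other embryonic stages. Hepatocyte markers (Alb, Ttr, Apoa1 and Hnf4a) summed to 5240.4 to 5919 on the 10.5 dpc liver arrays, 23432 to 23948 at 16.5 dpc and 24524 to 24720.1 in adult liver, and to between 1412 and 9510 in the rest of the embryo.

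Promoter sequence is shown for a few members whose transcripts moved far or apart, since this is the DNA next to which their transcription starts. The 120 bases just upstream of the RefSeq start (GRCm38.p6) are given 5' to 3' on the strand of the gene. Capitals mark GTTAAT, a half-site of the liver-enriched HNF1 factors. The window of Serpina1b is chr12:103738190-103738309, minus strand, that of Serpina1c is chr12:103904951-103905070, minus strand, that of Serpina7 is chrX:139085237-139085356, minus strand, and that of Serpinh1 is chr7:99353240-99353359, minus strand.
Serpina1b: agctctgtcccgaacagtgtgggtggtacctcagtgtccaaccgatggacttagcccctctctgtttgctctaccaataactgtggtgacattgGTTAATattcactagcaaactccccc
Serpina1c: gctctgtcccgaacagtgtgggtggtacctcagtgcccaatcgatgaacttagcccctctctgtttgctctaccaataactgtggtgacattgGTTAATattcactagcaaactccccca
Serpina7: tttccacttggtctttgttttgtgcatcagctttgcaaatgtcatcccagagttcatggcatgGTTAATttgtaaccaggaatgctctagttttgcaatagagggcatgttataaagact
Serpinh1: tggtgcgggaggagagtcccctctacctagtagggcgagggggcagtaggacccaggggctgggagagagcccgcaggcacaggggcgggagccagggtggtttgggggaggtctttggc

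The windows of Serpina1b and Serpina1c were equal at 116 of 119 bases when offset by 1 base, and both carried the half-site, starting 26 and 27 bases before the start. Serpina7 carried it 57 bases before the first of its listed starts. Serpinh1, shown because it fell where the others rose, had no match to it. RefSeq promoters were matched for 34 of the 40 genes, and 250 upstream bases were searched on both strands, with the motifs chosen after the sequences had been read. GTTAAT was in 3 of 11 genes of the Serpina1, Serpina3 and single-copy plasma groups, in 2 of 23 other members (Serpinb8 and Serpini2) and in 6.43% of 32851 promoters. The C/EBP-type pattern TTNNGCAA (TTGCNNAA) was in Serpina1b, Serpina1f and Serpina7 of the 11, in 4 of the 23 and in 9.56% of all promoters, and it overlapped GTTAAT in no member. Neither CAAAGTCCA (HNF4 type, 0.384% of promoters) nor TGTTTAC (FOXA type, 3.17%), on either strand, was in any of the 34 windows. A match is only a match of letters.

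All intensities below are linear array units, and the level of one probe set is not set against that of another. Differences are on the log2 scale after intensities under 24.8 were raised to that floor. A gene was tested where it exceeded 78.0 on at least 2 arrays of the fit. A gene could thus enter through the group where it read high alone, and its call there is not independent of the filter. It was called at an adjusted p under 0.05 (limma, Benjamini-Hochberg over all genes tested) with a difference of at least 1 log2, and only called genes are said to have risen or fallen. Of the 40 genes, 24 passed this filter in both the liver and the tissue fit, 2 in the liver fit alone (Serpina3n and Serpina9), 3 in the tissue fit alone (Serpina3a, Serpinb9 and Serpini1) and 11 in neither.

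Through embryonic liver development the plasma serpins rose. From 10.5 to 16.5 dpc, 12 of the 26 tested members rose, against 10.4% of all 14125 genes tested, and 2 fell, against 6.98%. The members that rose were Serpina1b and Serpina1c, Serpina3n, 7 of the 8 single-copy plasma serpins, the clade B gene Serpinb1a and the tissue serpin Serpinf1. Those that fell were Serpinh1 and Serpinb6e. The median difference was 0.81 log2 over the tested members and 0.05 over all genes. With the floor at the 40th percentile Serpinb1a (0.97), Serpina3n (0.69) and Serpina7 (0.68) were no longer called.

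Alpha-1 antitrypsin is the main plasma inhibitor of neutrophil elastase, and mice carry several copies of its gene. Serpina1b read 99.6 and 306 at 10.5, 1130.5 and 922 at 11.5, 2036 and 1527 at 12.5, 2867 and 2708 at 13.5, 3602 and 3351 at 14.5, then 4156 and 4053 at 16.5 dpc, with a higher mean at each successive stage. Its adult arrays read 6256 and 7055, and the rest of the embryo 16.8, 21.9, 45.4 and 95.1, in the order of its 4 stages, as in every such series below. The 16.5 dpc arrays lay far above those of 10.5 dpc without overlap, a difference of 4.55 (SE 0.39, adjusted p = 7.87e-06), while the further 0.69 (SE 0.39, adjusted p = 0.156) to the adult was not called.

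Serpina1c rose across every interval tested within liver, though the first step and the adult step lost their calls under several alternatives. It read 0.855 and 105 at 10.5, 220.3 and 147 at 11.5, 595 and 353 at 12.5, 993 and 1094 at 13.5, 2188 and 2255 at 14.5, then 2283 and 2045 at 16.5 dpc, and 6496 and 7402 in adult liver. One of the 10.5 dpc arrays lay under the floor. The difference from 10.5 to 16.5 dpc was 5.40 (SE 0.51, adjusted p = 1.6e-05), the largest of any tested member in that comparison. The adult rose a further 1.68 (SE 0.51, adjusted p = 0.0168). This call was lost (1.59 to 1.78) when either adult or either 16.5 dpc array was left out, and with the floor at the 10th percentile (1.68). The step from 10.5 to 11.5 dpc was 1.82 (SE 0.51, adjusted p = 0.0405). It was 0.78 and not called without the first 10.5 dpc array, the one with the high Gapdh ratio. The call was also lost with the floor at the 10th percentile, with no filter and with all 18 arrays in 1 fit. The same held without any single array of 11.5, 13.5, 14.5 or 16.5 dpc.

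Serpina1f was not called in any comparison within liver. It read between 95.0 and 170.0 on all 12 embryonic liver arrays and 149 and 157 in adult liver. The rest of the embryo gave 15.4, 14.9, 26.9 and 16.9, below both liver arrays at every matched stage.

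Probe sets of this cluster can bind transcripts of several copies. Both Serpina1b probe sets end in _x_at, the array maker's mark for probes that match other transcripts. The second read 117 and 293 at 10.5, 1061 and 892 at 11.5, 2117 and 1592 at 12.5, 2783 and 2679 at 13.5, 3667 and 3528 at 14.5, then 4051 and 4008 at 16.5 dpc, and 5485 and 7033 in adult liver. Another 2 probe sets carry several Serpina1 symbols and were left out of the family by the rule. That for Serpina1d and Serpina1a read 139.5 and 309 at 10.5, 974 and 999 at 11.5, 1628 and 1270.2 at 12.5, 1887 and 2044 at 13.5, 2612 and 2684 at 14.5, then 2821 and 2659.8 at 16.5 dpc, with 3162 and 7208 in adult liver. That for Serpina1e, Serpina1c and Serpina1b read -255 and -94.3 at 10.5, 26.3 and 85.7 at 11.5, 188 and 123 at 12.5, 294 and 369 at 13.5, 513 and 531 at 14.5, then 532 and 374 at 16.5 dpc, with 1289 and 2761 in adult liver. Both read higher on each 16.5 dpc array than on either 10.5 dpc array, as the Serpina1b and Serpina1c sets did, and the single-symbol names are therefore uncertain: which copies gave the signal was not tested.

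**Figure D1:**
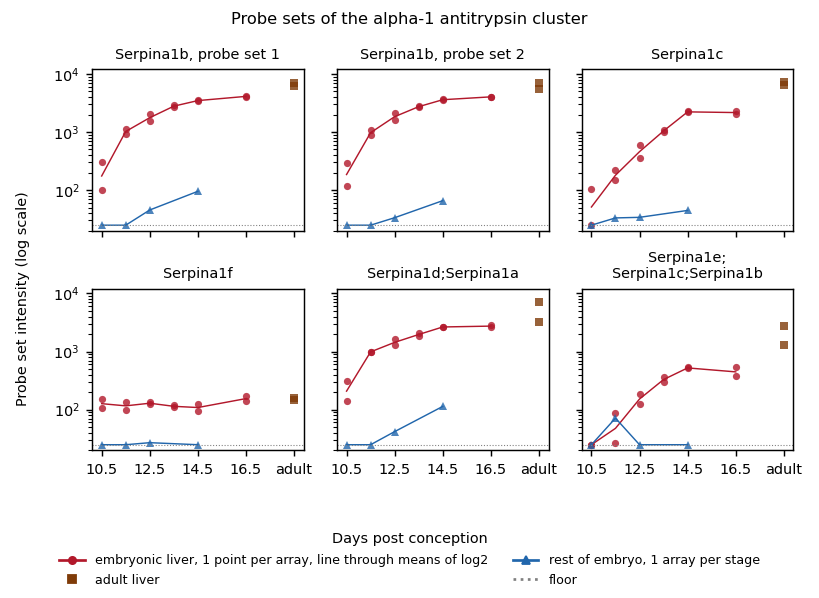
Intensity (log axis, values under the floor drawn at 24.8) of each probe set of the alpha-1 antitrypsin cluster against days post conception, with 1 point per array for embryonic liver, adult liver and the rest of the embryo. The 5 probe sets other than that of Serpina1f read higher at 16.5 than at 10.5 dpc, whereas Serpina1f stays between 95.0 and 170.0 in embryonic liver.

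The Serpina3 genes, relatives of antichymotrypsin, split 3 ways. Serpina3n, an acute-phase inhibitor, read 24.5 and 28.9 at 10.5, 21.7 and 41.8 at 11.5, 40.9 and 51.5 at 12.5, 53.7 and 62.0 at 13.5, 72.8 and 95.3 at 14.5, then 89.5 and 88.0 at 16.5 dpc, and 915 and 1521 in adult liver. Its 16.5 dpc arrays exceeded those of 10.5 dpc by 1.73 (SE 0.29, adjusted p = 0.000902), and the adult exceeded 16.5 dpc by 3.73 (SE 0.29, adjusted p = 1.32e-06). The rest of the embryo gave 6.59, 4.67, 5.83 and 12.8, all under the floor, and the gene was not tested there.

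Serpina3i showed no called change within liver. It read 1283 and 631 at 10.5, 725 and 621 at 11.5, 882 and 828 at 12.5, 972 and 779.5 at 13.5, 1115 and 1017 at 14.5, then 913 and 1053 at 16.5 dpc, and 887 and 849 in adult liver. Only 1 later liver array lay outside the range of the 10.5 dpc pair. It stood far above the rest of the embryo, which read 62.3, 69.1, 79.6 and 65.4. Serpina3a was the reverse: at most 22.7 on any liver array, under the floor, and 47.5, 97.2, 104 and 51.3 in the rest of the embryo. Each of these 3 genes has 1 probe set with the suffix _at, and cross-binding among the many Serpina3 copies was not tested.

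Among the single-copy plasma serpins, those that act on clotting rose from the first step. Antithrombin (Serpinc1), the main inhibitor of thrombin and factor Xa, read 154 and 300.1 at 10.5, 768 and 780.3 at 11.5, 1505 and 1076 at 12.5, 1852 and 1983 at 13.5, 2534 and 2549 at 14.5, then 2307 and 2463 at 16.5 dpc, and 3325 and 6495 in adult liver. The 10.5 dpc arrays lay below all others, and the difference to 16.5 dpc was 3.47 (SE 0.33, adjusted p = 1.67e-05), of which 1.85 came between 10.5 and 11.5 dpc. The adult difference of 0.96 (SE 0.33, adjusted p = 0.03) missed the size threshold but was called at 1.02 with median centring and 1.44 with quantile normalization.

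Heparin cofactor II (Serpind1), a thrombin inhibitor driven by glycosaminoglycans, read 171 and 265 at 10.5, 587 and 554 at 11.5, 1032 and 738 at 12.5, 1252 and 1321 at 13.5, 1578 and 1492 at 14.5, then 1459.9 and 1508 at 16.5 dpc. It rose by 2.80 (SE 0.25, adjusted p = 1.16e-05) with no overlap. Its adult arrays read 1198 and 1966, on either side of the 16.5 dpc pair, a difference of 0.05 (SE 0.25, adjusted p = 0.894). Serpina10, which blocks factor Xa together with protein Z, read 131 and 151 at 10.5, 398 and 400.2 at 11.5, 708 and 561 at 12.5, 820.1 and 848 at 13.5, 1077 and 1037 at 14.5, then 944 and 999 at 16.5 dpc, and 1174 and 1836 in adult liver. It rose by 2.79 (SE 0.19, adjusted p = 1.78e-06), with every later liver array above the 10.5 dpc pair.

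Alpha-2-antiplasmin (Serpinf2), the fast plasmin inhibitor, read 679 and 1083 at 10.5, 2183 and 2122 at 11.5, 2943 and 2348 at 12.5, 3497 and 3312 at 13.5, 3866 and 3617 at 14.5, then 3908 and 3752 at 16.5 dpc. It rose by 2.16 (SE 0.28, adjusted p = 0.000155), with both 10.5 dpc arrays lowest. Its adult arrays read 1723 and 3317, and the adult difference of -0.68 (SE 0.28, adjusted p = 0.0645) was not called and became 0.19 with quantile normalization.

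The hormone carriers moved apart. Serpina6, the corticosteroid-binding globulin, read 352 and 1208 at 10.5, 4132 and 3637 at 11.5, 6145 and 5203 at 12.5, 7226 and 6437 at 13.5, 7343 and 6974 at 14.5, then 7145 and 7269.9 at 16.5 dpc. It rose by 2.57 (SE 0.47, adjusted p = 0.00499) from 10.5 to 11.5 dpc and by 3.47 (SE 0.47, adjusted p = 0.000195) to 16.5 dpc. Adult liver read 1192 and 2440.5, below every embryonic array from 11.5 dpc onward, and it fell from 16.5 dpc, a difference of -2.08 (SE 0.47, adjusted p = 0.00307). Serpina7, the thyroxine-binding globulin, read -0.916 and 3.39 at 10.5, 9.55 and 10.0 at 11.5, 51.8 and 16.7 at 12.5, 49.2 and 71.4 at 13.5, 78.1 and 78.7 at 14.5, then 87.8 and 88.4 at 16.5 dpc, and 186 and 258 in adult liver. It was under the floor on all arrays at 10.5 and 11.5 dpc, was at least 3.55-fold higher at 16.5 than at 10.5 dpc (adjusted p = 0.000892), and the adult exceeded 16.5 dpc by 1.31 (SE 0.31, adjusted p = 0.00405), a call lost (1.08) without the second adult array.

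Serpina11 and C1 inhibitor (Serping1, which blocks the complement proteases C1r and C1s and plasma kallikrein) reached their highest levels in the adult. Serpina11 read -31.1 and -14.7 at 10.5, 25.4 and 14.9 at 11.5, 40.7 and 4.79 at 12.5, 78.2 and 111 at 13.5, 146 and 117 at 14.5, then 157 and 129 at 16.5 dpc, at least 5.73-fold higher at 16.5 than at 10.5 dpc (adjusted p = 0.000404), and 724 and 1797 in adult liver, an increase of 3.00 (SE 0.38, adjusted p = 5.06e-05). Serping1 read 139 and 169 at 10.5, 211 and 232 at 11.5, 208 and 161 at 12.5, 239 and 297 at 13.5, 382 and 355 at 14.5, then 309.9 and 299.6 at 16.5 dpc, a difference of 0.99 (SE 0.31, adjusted p = 0.0284) that just missed the size threshold. Its adult arrays read 1695 and 3914, far above every embryonic liver array, with an increase of 3.08 (SE 0.31, adjusted p = 8.67e-06) over 16.5 dpc.

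**Figure D2:**
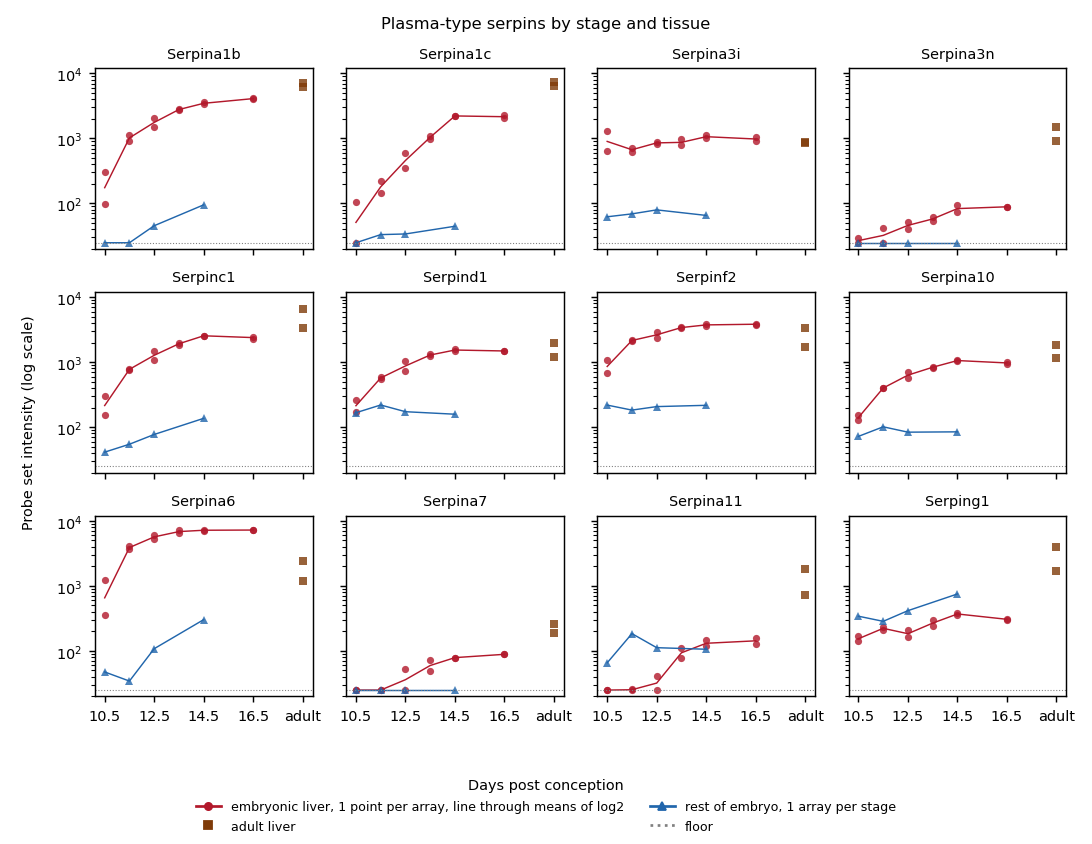
Intensity (log axis, values under the floor drawn at 24.8) of 12 plasma-type serpins against days post conception, with 1 point per array for embryonic liver, adult liver and the rest of the embryo. Serpinc1, Serpind1, Serpinf2, Serpina10 and Serpina6 climb most steeply between 10.5 and 11.5 dpc, Serpina7 and Serpina11 leave the floor later, and Serping1 and Serpina3n are highest in the adult.

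The rise was then divided at 11.5 dpc. Between 10.5 and 11.5 dpc, 7 of 26 tested members rose, against 2.97% of all genes: Serpina6, Serpina1b, Serpinc1, Serpina1c, Serpina10, Serpind1 and Serpinf2, by 1.33 to 2.57 log2. None fell, against 2.69% of all genes, by limma, where 1 member was lower at an unadjusted p under 0.05: Serpinh1, at -0.90 (SE 0.21, adjusted p = 0.0171), under the size threshold. Without the first 10.5 dpc array Serpina1c and Serpinf2 (0.99) were no longer called, and without the second, Serpinh1 was called as well. Serpinf2 also lost its call without the first (1.31) or the second (1.35) array of 11.5 dpc.

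Between 11.5 and 16.5 dpc, where heart markers were low at both ends, 9 of 26 rose, against 6.22% of all genes, and 2 fell, against 2.54%. Those that rose most were Serpina1c by 3.59, Serpina11 by 2.50, Serpina1b by 2.01, Serpina7 by 1.83 and Serpinc1 by 1.62 log2. Serpina3n rose by 1.46, Serpind1 by 1.38, Serpina10 by 1.28 and Serpinb1a by 1.21 log2. The Serpinb1a call was lost without the second 11.5 dpc array (0.77) and without either 16.5 dpc array (1.25 and 1.18). With the floor at the 40th percentile Serpinb1a (0.87), Serpina3n (0.69) and Serpina7 (0.68) were not called over this interval. Serpina6 at 0.89 (SE 0.47, adjusted p = 0.201), Serpinf2 at 0.83 (SE 0.28, adjusted p = 0.0591) and Serpinf1 at 0.74 (SE 0.31, adjusted p = 0.112) were not called over this interval. Higher calls made up 71.0% of all calls here, and 60.1% with median centring and 57.2% with quantile normalization, while the members' counts were 9 and 2 with median centring, and 9 and 3 with quantile normalization.

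All 4 hepatocyte markers rose from 10.5 to 16.5 dpc, 3 between 10.5 and 11.5 dpc and 2 between 11.5 and 16.5 dpc. From 16.5 dpc to the adult none of the 4 was called, with a median of 0.12 log2. Their part in the serpin differences was not tested. On the first 10.5 dpc array Serpina1b, Serpina6 and Serpinc1 read lower than on the second. Leaving that array out, 12 members still rose and 2 fell from 10.5 to 16.5 dpc.

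The proteases that serpins restrain were counted beside them. Of 21 listed proteases, 19 were tested, and 16 rose from 10.5 to 16.5 dpc while none was called lower. Their median was 2.82 log2. The largest increases were in Proc, which encodes anticoagulant protein C (4.35, SE 0.20), Plg, which encodes plasminogen (3.59, SE 0.31), and Klkb1, which encodes plasma kallikrein (3.50, SE 0.29). Neutrophil elastase (Elane, 2.52) and cathepsin G (Ctsg, 2.39) rose too. Of 4 markers of granulocytes and mast cells, S100a8, S100a9 and Mpo rose, by 6.21, 6.43 and 2.91 log2, whereas the mast cell marker Cpa3 fell, at -1.19 (SE 0.32, adjusted p = 0.0133), and their sum went from 296 to 445 at 10.5 dpc to 5741 to 5981 at 16.5 dpc. Of 5 genes listed as partners of serpins, 4 were tested and 3 rose: Vtn (vitronectin), Proz (protein Z, the cofactor of Serpina10) and Agt (angiotensinogen). Agt is itself a serpin by sequence, outside the family here because of its symbol, and not a partner.

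Serpinh1 (HSP47), the collagen chaperone of the endoplasmic reticulum and no protease inhibitor, ran against the plasma serpins. It read 2911 and 2915 at 10.5, 1633 and 1496 at 11.5, 1165 and 1581 at 12.5, 1036 and 934 at 13.5, 910.2 and 673 at 14.5, then 678 and 783 at 16.5 dpc, with 286 and 196 in adult liver. Both 10.5 dpc arrays lay above all later liver arrays, and both adult arrays lay below all embryonic ones. It fell from 10.5 to 16.5 dpc, a difference of -2.00 (SE 0.21, adjusted p = 3.29e-05), and again to the adult, a difference of -1.62 (SE 0.21, adjusted p = 6.25e-05). The rest of the embryo read 4313, 4877, 5173 and 6183, above both liver arrays at every matched stage.

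The second Serpinh1 probe set, which ends in _x_at, gave a larger early difference. It read 2231 and 1793 at 10.5, 652 and 734 at 11.5, 176 and 266 at 12.5, 123 and 154 at 13.5, 125 and 121 at 14.5, then 84.8 and 83.2 at 16.5 dpc, and 103 and 83.8 in adult liver. Its difference was -4.57 (SE 0.21) from 10.5 to 16.5 dpc and 0.14 (SE 0.21) from 16.5 dpc to adult, so the probe sets disagreed on the later step. With the mean of both, the adult difference was -0.74 and not called.

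All 5 collagen genes listed as clients of this chaperone fell from 10.5 to 16.5 dpc, with a median of -1.32 log2: Col1a1 (-1.45), Col4a1 (-1.33), Col1a2 (-1.32), Col3a1 (-1.19) and Col4a2 (-1.18). Between 11.5 and 16.5 dpc none of the 5 was called, with a median of -0.05, whereas Serpinh1 fell, at -1.10 (SE 0.21, adjusted p = 0.00421), a call lost at -0.996 without the first 16.5 dpc array. Mesenchyme markers (4 genes, of which Col1a1 and Col3a1 are in both lists) summed to 5578 to 7316 at 10.5 dpc, 3050 to 3105 at 11.5 dpc, 2256 to 2296 at 16.5 dpc and 527 to 637 in adult liver. Their part in the Serpinh1 differences was not tested.

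Among the other tissue serpins, Serpinf1 (PEDF), a secreted non-inhibitory serpin with anti-angiogenic activity, read 309.8 and 538 at 10.5, 689 and 641 at 11.5, 777 and 677 at 12.5, 998 and 995 at 13.5, 1120.0 and 1064 at 14.5, then 1066 and 1155 at 16.5 dpc, and 1495 and 3090.2 in adult liver. It rose by 1.44 (SE 0.31, adjusted p = 0.00378) from 10.5 to 16.5 dpc, while the adult difference of 0.95 (SE 0.31, adjusted p = 0.0218) was called only with median centring (1.01) and quantile normalization (1.63). A second Serpinf1 probe set read -176 and 264 at 10.5 dpc and 724 and 750.3 at 16.5 dpc, a difference of 3.19 (SE 0.78). Serpini1 (neuroserpin), which inhibits tissue plasminogen activator in neurons, has 3 probe sets. The one used for the gene lay under the floor on 13 of 14 liver arrays, read 32.3 on the other, and read 277, 396, 379.6 and 397 in the rest of the embryo. Another reached at most 31.1 on liver arrays, with 27.99 and 27.5 at 10.5 dpc, and read 173, 230.3, 316 and 523 in the rest of the embryo, and the remaining one stayed under the floor on every array. Serpini2 reached at most 25.9 on any array and was not tested.

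**Figure D3:**
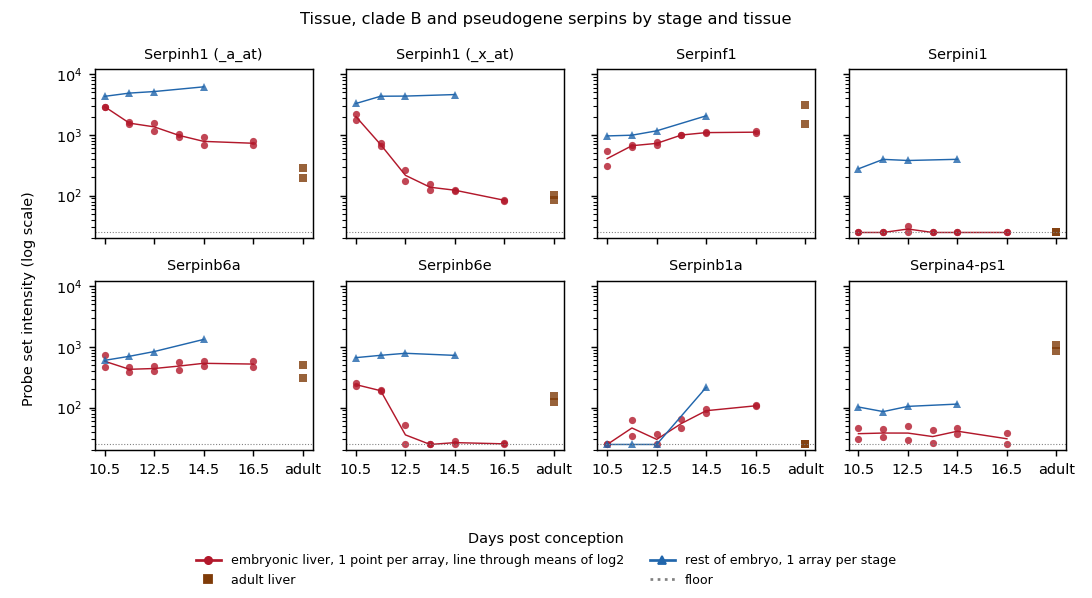
Intensity (log axis, values under the floor drawn at 24.8) of both Serpinh1 probe sets, named by suffix, and of 6 other serpins against days post conception, with 1 point per array for embryonic liver, adult liver and the rest of the embryo. Serpinh1 and Serpinb6e fall within embryonic liver and stay below the rest of the embryo, whereas Serpina4-ps1 reads highest in adult liver, at 847 and 1060.5.

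Clade B was low in liver for most of its members. Of its 18 genes, 9 were tested in at least 1 fit, and the other 9 (Serpinb12, Serpinb1b, Serpinb2, Serpinb3a, Serpinb6c, Serpinb7, Serpinb8, Serpinb9d and Serpinb9g) reached at most 131 on any array. Together with Serpina5 and Serpini2 these 11 untested genes had a median of 21.5 over arrays, under the floor. From 10.5 to 16.5 dpc 1 of 8 tested clade B genes rose and 1 fell, beside 10.4% and 6.98% of all genes.

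Serpinb1a, an inhibitor of neutrophil elastase inside leukocytes, was the one that rose. It read -1.71 and 6.13 at 10.5, 63.2 and 34.0 at 11.5, 36.5 and 21.5 at 12.5, 46.0 and 65.7 at 13.5, 95.9 and 82.9 at 14.5, then 105 and 110.0 at 16.5 dpc, at least 4.33-fold higher at 16.5 than at 10.5 dpc (adjusted p = 0.000227). In adult liver it read 11.4 and 13.4, under the floor, so that it was at least 4.33-fold lower there than at 16.5 dpc (adjusted p = 0.000102), a call lost at -0.97 with the floor at the 40th percentile. A second probe set of the gene, which ends in _s_at and was not tested, read 13.95 and -1.88 at 10.5, 26.2 and 23.6 at 16.5 dpc and 25.1 and 31.2 in the adult, with the adult arrays not below both of 16.5 dpc. The granulocyte markers S100a8, S100a9 and Mpo rose to 16.5 dpc and fell to the adult as the first probe set did, by -4.74, -4.28 and -4.20 log2 at the second step, whereas Cpa3 fell first and was then not called (0.59, SE 0.32, adjusted p = 0.14). Over the 4 markers the sums were 5741 to 5981 at 16.5 dpc and 322 to 364 in the adult, and their part was not tested. In the rest of the embryo Serpinb1a read 14.5, 10.4, 19.9 and 216, high at 14.5 dpc alone. The 4 markers summed to 2605 on that array, of which Cpa3 made up 1903.

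Serpinb6e read 252 and 228 at 10.5, 185 and 195 at 11.5, -6.00 and 51.2 at 12.5, -17.8 and -6.16 at 13.5, -20.6 and 28.5 at 14.5, then 26.0 and 13.6 at 16.5 dpc. Both adult arrays, 126 and 154, lay between the early and the late embryonic levels, and the rest of the embryo read 666, 727, 785 and 725. The fall from 10.5 to 16.5 dpc was -3.24 (SE 0.28, adjusted p = 8.14e-06) with a 16.5 dpc array under the floor, and the adult rose by 2.46 (SE 0.28, adjusted p = 2.12e-05). Its probe set ends in _x_at, and binding of transcripts from its relatives on chromosome 13 was not tested.

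The broadly expressed relative Serpinb6a read 724 and 465 at 10.5, 392 and 467 at 11.5, 477 and 408 at 12.5, 421 and 555 at 13.5, 492 and 587 at 14.5, then 461 and 590.2 at 16.5 dpc, with 309 and 501 in adult liver, and no comparison within liver called it. The other tested clade B genes, Serpinb6b, Serpinb5 (maspin), Serpinb9b, Serpinb9c and Serpinb11, were not called from 10.5 to 16.5 dpc, at 0.28, 0.02, -0.20, 0.33 and -0.29 log2. The sign for Serpinb5 turned with median centring (-0.10) and quantile normalization (-0.09).

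Adult liver differed from 16.5 dpc liver in both directions. Of 26 tested members 8 rose, against 10.3% of all genes, and 3 fell, against 22.8%, with a median of 0.54 log2 over the tested members and -0.24 over all genes. Besides those described above, Serpina4-ps1, a pseudogene related to kallistatin, read 46.0 and 30.3 at 10.5, 32.9 and 44.4 at 11.5, 50.2 and 29.1 at 12.5, 42.2 and 26.5 at 13.5, 46.4 and 36.2 at 14.5, then 24.7 and 38.2 at 16.5 dpc and then 847 and 1060.5 in adult liver, an increase of 4.94 (SE 0.35, adjusted p = 6.16e-07) and the largest of the tested members. Its other probe sets lay under the floor on both 16.5 dpc arrays and rose by at least 4.56 and 5.03 log2. Serpina9, known from germinal centre B cells, read 44.7 and 72.2 at 16.5 dpc and 126 and 150.1 in the adult, an increase of 1.27 (SE 0.46, adjusted p = 0.0361) that was 0.93 and not called without the first 16.5 dpc array. Serpina4-ps1 and Serpina9 passed the filter through the adult arrays alone, their embryonic liver values reaching at most 50.2 and 72.2. Serpina12 (vaspin) read 188 and 276 at 16.5 dpc and 258 and 299 in the adult, not called at 0.28 (SE 0.26, adjusted p = 0.396).

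The adult arrays were unequal, with a 99th percentile of intensity of 1325 on the first and 2285 on the second. The second read higher for Serpinc1, Serpinf2, Serpina6, Serpina11 and Serping1, as given above. The median difference over all genes was -0.26 log2 without the second adult array and -0.32 without the first, against -0.24 with both. Quantile normalization gave 12 members higher and 3 lower and moved the share of higher calls over all genes from 31.2% to 43.8%. Of the 19 tested proteases 11 rose to the adult and 2 fell, with a median of 1.31 log2. The largest differences were in Prtn3, which encodes the neutrophil proteinase 3 (-4.15, SE 0.18), and in the clotting factor genes F9 (3.997, SE 0.15) and F7 (3.47, SE 0.20). All 4 tested genes of the partner list, Agt among them, rose, by 1.02 to 1.60 log2, and 4 of the 5 collagen genes fell.

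**Figure D4:**
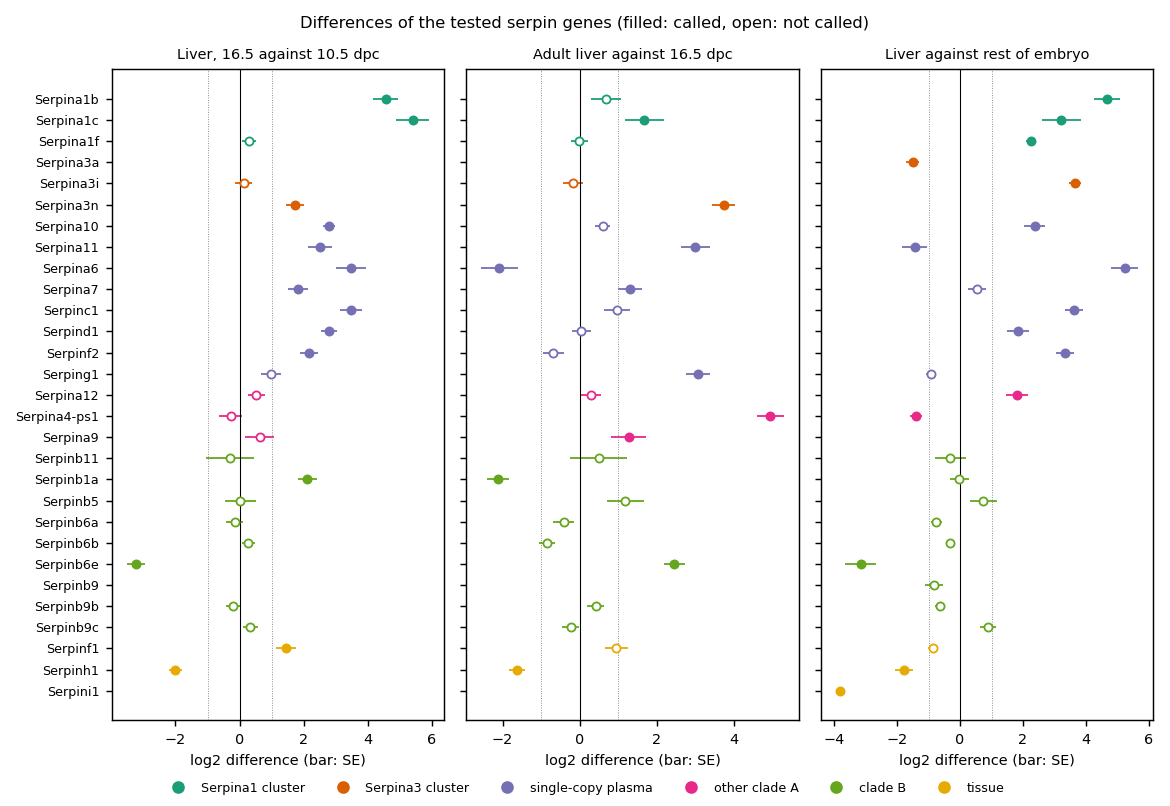
Log2 differences with standard errors of the tested serpin genes in 3 comparisons, grouped by role and coloured by it, filled where called and open where not. Plasma serpins lie mostly to the right in the left and right panels, and Serpinh1 lies to the left in all 3, at -2.00, -1.62 and -1.78.

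Liver was then compared with the rest of the embryo over the 4 matched stages. Across these arrays, whose scales differ as described, the median over all 14895 genes tested was -1.04 log2 (-0.64 with median centring, -0.11 with quantile normalization), against -0.02 over the 27 tested members. Of these 27, 10 were higher in liver, against 14% of all genes, and 6 lower, against 51.2%. With median centring the members' counts were 12 and 5 and with quantile normalization 11 and 5, while the share of higher calls over all genes went from 21.4% to 32.1% and 50.4%.

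Serpina6 stood highest over the rest of the embryo, by 5.23 (SE 0.44, adjusted p = 7.54e-07), and read 47.2, 34.1, 107 and 301 there, rising with stage from 11.5 dpc. Serpina1b was higher in liver by 4.66 (SE 0.41, adjusted p = 1.15e-06), Serpina3i by 3.65 (SE 0.19, adjusted p = 2.37e-08) and Serpinc1 by 3.62 (SE 0.28, adjusted p = 4.12e-07). In the rest of the embryo Serpinc1 read 41.2, 54.5, 77.0 and 136. Every liver array of these genes lay above the rest-of-embryo array of its stage.

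Also higher in liver were Serpinf2 by 3.33, Serpina1c by 3.22, Serpina10 by 2.38, Serpina1f by 2.24, Serpind1 by 1.84 and Serpina12 by 1.81 log2. Both liver arrays lay above the other array at all 4 stages for these genes except Serpina1c, for which they did at 3. The rest of the embryo read 218, 183, 207 and 216 for Serpinf2, 166, 219, 172 and 158 for Serpind1 and 78.0, 113, 35.3 and 19.8 for Serpina12. Hepatocyte markers in the rest of the embryo summed to 1412, 3591, 5258 and 9510 over these stages. Most of that was Ttr, at 1132, 3255, 4730.0 and 7550.1, while Alb read 121.5, 104.8, 303 and 1219.7 and Hnf4a 18.6, 11.7, 27.4 and 85.5. Their part in its plasma serpin levels was not tested.

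The members lower in liver came from several role groups. Serpini1 differed by -3.81 (SE 0.14, adjusted p = 4.77e-09), Serpinb6e by -3.16 (SE 0.49, adjusted p = 0.000107) and Serpinh1 by -1.78 (SE 0.28, adjusted p = 0.000139), each with both liver arrays below the other array at all 4 stages. Serpina3a was at least 2.84-fold lower in liver (adjusted p = 2.97e-05). Serpina4-ps1 differed by -1.39 (SE 0.19, adjusted p = 4.63e-05), with 103, 86.2, 105 and 115 in the rest of the embryo, though with median centring it was -0.999 and not called. Serpina11 differed by -1.44 (SE 0.39, adjusted p = 0.00496), with 65.2, 183, 111 and 105 in the rest of the embryo, but both 14.5 dpc liver arrays exceeded their counterpart, and the difference was -0.97 and not called without the 11.5 dpc rest-of-embryo array. With the floor at the 40th percentile Serpina3a (-0.44), Serpina11 (-0.68) and Serpina4-ps1 (-0.89) were no longer called. Serpini1, Serpina3a and Serpina4-ps1 passed the filter here through the rest-of-embryo arrays alone, their embryonic liver values reaching at most 32.3, 18.6 and 50.2.

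Serpinh1 kept its direction but not its call under quantile normalization, where it was -0.61. All 5 collagen genes were lower in liver, with a median of -2.30 log2, and mesenchyme markers summed to between 10655 and 32024 in the rest of the embryo. Neural markers (4 genes) summed to 14769 in the rest of the embryo at 10.5 dpc and to 506 and 569 in liver of that stage, beside the low liver level of Serpini1. The part of either marker list was not tested. With the 11.5 and 14.5 dpc arrays alone, where heart markers were low in liver, 10 members were higher and 5 lower, Serpina11 (-1.28) no longer being called.

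Some members differed by less than the threshold, and the difference turned or vanished with the scaling. Serpinf1 was -0.85 (SE 0.15, adjusted p = 0.000288) and 0.36 with quantile normalization, Serping1 was -0.93 (SE 0.15, adjusted p = 0.000148) and 0.00, and Serpinb6a was -0.75 (SE 0.19, adjusted p = 0.00333) and 0.40. The rest of the embryo read 963, 989, 1168 and 2062 for Serpinf1, 340.1, 284, 414 and 748 for Serping1 and 601, 701, 839 and 1328 for Serpinb6a. These 3 probe sets read highest at 14.5 dpc in that tissue. The second Serpinf1 probe set was -1.81, 0.55, 0.32 and 0.22 log2 over the stages, lower in liver at the first stage alone. With every probe set on its own, its difference over all stages was -0.18 (SE 0.55, adjusted p = 0.765) and not called. The Serpinf1 probe sets thus disagreed on direction after the first stage, apart from the scaling.

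Of the remaining clade B genes none was called between the tissues: Serpinb9 (a granzyme B inhibitor) at -0.83, Serpinb9b at -0.65, Serpinb9c at 0.90, Serpinb5 at 0.73, Serpinb1a at -0.02, Serpinb6b at -0.31 and Serpinb11 at -0.30 log2. Serpinb9c was called with median centring (1.29) and quantile normalization (1.11), and Serpinb5 with median centring (1.13). The positive value for Serpinb5 holds for 1 of its 4 probe sets, at 1.61, 1.18, 1.08 and -0.93 log2 over the stages. The other 3 were not tested: that ending in _a_at was -0.89, 0, -1.35 and -2.83, and those ending in _x_at were 0, both tissues at the floor, until 14.5 dpc, where they were -2.08 and -1.64. The signs of Serpinb1a, Serpinb6b and Serpinb11 turned positive under both scalings. Serpina7, under the floor on all 4 rest-of-embryo arrays, was 0.55 (SE 0.28, adjusted p = 0.0897) and not called.

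Of 17 tested proteases 10 were called higher in liver and 1 was called lower. The largest differences were in Masp1, a lectin-pathway complement protease (3.82, SE 0.26), F10, the gene of clotting factor X (3.67, SE 0.32), and Plg (2.73, SE 0.44). The one called lower was Plat, which encodes tissue plasminogen activator, the target of neuroserpin (-1.71, SE 0.24). Among the partners Lrp1, an uptake receptor for serpin-protease complexes, was lower in liver (-2.33, SE 0.16).

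The tissue difference changed with stage for 9 of the 27 tested members, at a threshold of 0.25 log2 per day. It rose for 6, against 6% of all genes, and fell for 3, against 10.1%. None of the 4 hepatocyte markers had a called slope, with a median of -0.22 log2 per day. Of the 8 single-copy plasma serpins 4 had a called slope and 4 did not, with a median of 0.45. The part of the hepatocyte markers in these slopes was not tested. Serpina1c led at 1.14 (SE 0.23, adjusted p = 0.00842) log2 per day, and at the single stages it was 1.04, 2.44, 3.76 and 5.64 log2. Serpind1 went from 0.36 at 10.5 dpc to 1.38, 2.34 and 3.28 log2, and Serpina10 from 0.96 to 1.98, 2.92 and 3.65. Serpinh1 went the other way, from -0.57 at 10.5 dpc to -1.64, -1.93 and -2.98 log2, a slope of -0.57 (SE 0.077, adjusted p = 0.00186). Its _x_at probe set went further, from -0.72 to -2.65, -4.33 and -5.23 log2, with a slope of -1.10 (SE 0.15, adjusted p = 0.00184) and a difference over all stages of -3.23 (SE 0.55, adjusted p = 0.000205), against the -1.78 given above.

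Serpinf2, Serpina12, Serpina7, Serpinb6e and Serpinb6a also had called slopes, given with the flagged results below. For the probe sets used for the remaining members no slope was called. Serpina3i was 3.85, 3.28, 3.42 and 4.03 log2 at the 4 stages, with a slope of 0.08 (SE 0.13, adjusted p = 0.721), and Serpini1 was -3.48, -4.00, -3.75 and -4.00, with a slope of -0.10 (SE 0.084, adjusted p = 0.485). That Serpini1 probe set lay mostly at the floor in liver, and the gene's second one was -2.64, -3.05, -3.67 and -4.36, with a called slope of -0.44 (SE 0.076, adjusted p = 0.00538). Each stage has 1 rest-of-embryo array, and without that of 14.5 dpc, which shortens the range of days, only the slopes of Serpind1, Serpina10 and Serpinb6e were called. The other slopes were then 1.36 for Serpina1c, 0.85 for Serpinf2, 0.67 for Serpina12, 0.27 for Serpina7, -0.68 for Serpinh1 and -0.44 for Serpinb6a, so that of these 6 Serpina7 alone came nearer to 0. With median centring the share of rising slopes over all genes went from 37.2% to 47.6%, and the members' counts became 6 and 2.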

How the data were processed

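Biotin-labelled cRNA was run on Affymetrix 430 2.0 arrays, per the labels' protocols. The authors deposited 1 table of linear probe set intensities for 18 arrays, and the summarisation and scaling behind it are not given in the sources used here. Groups follow the source names. The adult treatment text describes a hepatectomy, but title and source give baseline normal liver. Members and lists were chosen with earlier results of these data known. Clade E serpins, such as Serpine2, were not analysed here.

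Symbols came from the platform annotation given. Deposited intensities under the 20th percentile (24.8) were raised to it and taken to log2. A gene was its probe set of highest mean log2, tested where over the 50th percentile (78.0) on at least 2 arrays of the fit. Differences came from limma 3.58.1 in R 4.3.3 (lmFit, eBayes with intensity trend, two-sided, Benjamini-Hochberg): 1 fit of 14 liver arrays with a mean per group, and 1 of 12 arrays with stage as a factor, plus tissue by day for slopes. Where all arrays of a group lay under the floor, the fold is a lower bound. Array by array values were given for Serpinh1, the Serpina1 and Serpina3 probe sets and up to 3 called members per role group and comparison, and other members by difference or range. Up to 3 called genes of the protease and partner list with the largest difference were named per comparison, and Elane, Ctsg, Plat, Lrp1 and the named partners were chosen after their values were seen. The fits were tested on simulated data with known changes. Alternatives were the floor, the filter, median centring, quantile normalization, the probe set rule, the trend, all 18 arrays in 1 fit, stages left out, each array left out and a replicate block. The number of arrays limits the precision.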

Additional observations from a re-analysis of the deposited data

Results flagged for a closer look

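For 9 serpins the difference between liver and the rest of the embryo changed with stage by the tissue by day interaction (12 arrays, limma, Benjamini-Hochberg over all 14895 genes tested). It rose by 1.14 log2 per day for Serpina1c (SE 0.23, adjusted p = 0.00842), 0.72 for Serpind1 (SE 0.10, adjusted p = 0.00197), 0.66 for Serpina10 (SE 0.086, adjusted p = 0.00159) and 0.64 for Serpina12 (SE 0.14, adjusted p = 0.0143). It rose by 0.46 for Serpinf2 (SE 0.12, adjusted p = 0.0281) and 0.44 for Serpina7 (SE 0.13, adjusted p = 0.0368). The Serpinf2 value was 0.19 without the 10.5 dpc and 0.85 without the 14.5 dpc rest-of-embryo array, and that of Serpina7 0.27 without the latter, none of them called. It changed by -0.89 for Serpinb6e (SE 0.18, adjusted p = 0.00938), -0.57 for Serpinh1 (SE 0.077, adjusted p = 0.00186) and -0.29 for Serpinb6a (SE 0.089, adjusted p = 0.0492). No group held the 4 or more arrays that a check for a single deviating array needs.

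For Serpina12 the rest of the embryo read 78.0 and 113 at 10.5 and 11.5 dpc and 35.3 and 19.8 at 12.5 and 14.5 dpc, while no liver comparison called it. Without the 14.5 dpc array of the rest of the embryo, the calls for Serpind1 (0.99), Serpina10 (0.98) and Serpinb6e (-1.49) were kept. The other 6 were not called, at 1.36 for Serpina1c, 0.85 for Serpinf2, 0.67 for Serpina12, 0.27 for Serpina7, -0.68 for Serpinh1 and -0.44 for Serpinb6a. The Serpinb6a slope was also not called with median centring (-0.26) or quantile normalization (-0.26). Nor was it called with the floor at the 10th percentile, with no filter, without the intensity trend or with the replicate block. It lost its call, too, when any single rest-of-embryo array was left out, or any single liver array of 12.5 or 14.5 dpc.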

How the results depend on the processing

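Of the serpin calls, 11 of 14 (16.5 against 10.5 dpc, not counting the setting without 10.5 dpc arrays), 5 of 7 (11.5 against 10.5), 7 of 11 (16.5 against 11.5), 6 of 11 (adult), 12 of 16 (tissue) and 2 of 9 (slopes) were kept in every alternative run, and none changed direction. Counts of members moved by more than 1.5 times as follows. Members lower at 11.5 than 10.5 dpc numbered 0, and 1 with the mean of probe sets or with every probe set on its own (0 to 1 with an array left out). Leaving out an array gave 1 to 2 lower from 11.5 to 16.5 dpc, 4 to 9 higher and 3 to 5 lower in the adult, and slopes rising for 2 to 6 and falling for 1 to 4. The mean of probe sets gave 1 lower in the adult. A floor at the 40th percentile gave 3 lower in liver than in the rest of the embryo and 5 falling slopes.

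With the replicate block, 12 members rose and 2 fell from 10.5 to 16.5 dpc, and Serpina1c from 10.5 to 11.5 dpc (1.82) and the slope of Serpinb6a (-0.29) lost their calls. Same-numbered samples correlated between -0.35 and 0.25 over 21 pairs, with a median of 0.016 and 5 of them over 0.1. With so few arrays per group, these values cannot show whether same-numbered samples of some stages were handled together. Signal near the floor limits Serpina7, Serpina11, Serpinb1a, Serpina3a and Serpini1, whose differences are compressed. Beyond fewer samples or compressed low values, the cause of these changes was not tested.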

Other observations

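In the rest of the embryo, several clade B serpins read highest on the 14.5 dpc array. Serpinb12 read 11.6, 13.2, 17.97 and 130.5 over the 4 stages, and Serpinb7, which like it is known from skin, read 11.9, 20.4, 25.3 and 78.5. All 4 probe sets of Serpinb5 (maspin, known from epithelia) read highest there, at 176, 123, 105 and 77.2, against at most 63.2 at any earlier stage. Serpinb1a, Serpinb1b, Serpinb2, Serpinb8, Serpinb9 and Serpinb11 also read highest at 14.5 dpc. With 1 array per stage these values have no replicate and no test, and they were picked after being seen.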
